A study of Mus musculus with 8 samples.

Results

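The genes for proteins of the mitochondrial ribosome were followed in macrophages of mouse skin wounds between day 1 and day 3 after injury. They were taken by symbol, Mrps with a number for the small subunit and Mrpl with a number for the large subunit, without pseudogenes, which gave 78 of the 55414 genes in the deposited table: 29 Mrps and 49 Mrpl genes. The cells came from the wound bed of excised skin, were released with collagenases and were held on magnetic beads against F4/80, a macrophage surface protein. The day 1 group had 3 libraries (a to c) and the day 3 group 5 (a to e), each from a pool of 6 wounds of 3 mice. The protocol speaks of 6 samples per time point, and the others were not analysed here. The labels give no strain, genotype, age, sex or drug for either group. Because each library is a pool, it averages over animals, and whether a mouse gave wounds to more than 1 pool is not given in the labels.

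The mitochondrial ribosome translates the few messenger RNAs of the mitochondrial genome, which encode core subunits of the respiratory chain and of ATP synthase. Its 2 ribosomal RNAs are transcribed in the mitochondrion, whereas all of its proteins are encoded in the nucleus, made in the cytosol and imported. The small subunit binds and decodes the messenger RNA, and the large subunit joins amino acids and releases the chain towards the inner membrane. Part of the proteins have counterparts in bacteria, and the rest are found in mitochondria alone. Structures of the ribosome show exceptions to the naming: the products of Mrps18a and Mrps30 lie in the large subunit. The product of Mrps36 is better known as a part of the 2-oxoglutarate dehydrogenase complex.

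Total counts ran from 41566151 to 60289310 per library. Markers of macrophages (7 of 7 genes found) summed to between 13133 and 15818 CPM (counts relative to the library's total after TMM scaling) at day 1 and between 22556 and 29512 CPM at day 3, and 6 inflammatory monocyte markers to between 5609 and 6556 and between 3100 and 3867 CPM. The 7 neutrophil markers had summed levels of 825 (a), 2182 (b) and 3754 CPM (c) at day 1, of 3608 CPM in day 3 b and of 428 to 632 CPM in day 3 a, c, d and e. Fibroblast, endothelial, keratinocyte, lymphocyte and red cell markers summed to at most 115 CPM per list in any library, with the fibroblast list between 7.35 and 33.8 CPM at day 1 and between 51.7 and 115 CPM at day 3. Between 23928 and 27315 genes had a count in the day 1 libraries, 20557 in day 3 a and between 14952 and 15359 in day 3 b to e. The macrophage, monocyte, fibroblast, endothelial and B cell marker sums and the number of genes with a count did not overlap between the days. The totals and the neutrophil, keratinocyte, T and NK cell and red cell sums overlapped. The part of any of these in the results below was not tested. In bulk RNA, fewer cells of a type and less RNA per cell cannot be told apart.

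Most of the 77 tested mitochondrial ribosomal protein transcripts had higher levels at day 3, by small amounts, and no single one passed the test over all genes. The log2 fold change, day 3 minus day 1, was above 0 for 61 of 77 members, while it was above 0 for 42.9% of all 15371 genes tested. The median over members was 0.42, against -0.17 over all genes tested. With a stricter filter (mean level of 5 CPM or more, and no library of 1 of the days under 1 CPM), the members' median was 0.45 and that of the 8142 genes -0.032. By the edgeR quasi-likelihood test 0 members were called at an adjusted p under 0.05, as were 0.013% of all genes (2 genes, neither of them a member). The smallest adjusted p of a member was 0.0829.

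At an unadjusted p under 0.05 there were 23 members by edgeR, 21 higher and 2 lower at day 3, with a background of 5.16% of all genes higher and 10.5% lower. DESeq2 called 5 members (Mrps14, Mrps34, Mrpl33 and Mrpl42 higher, Mrpl4 lower), where it called 6.77% of all genes, and limma voom called 3 (Mrps14, Mrpl33 and Mrpl4), where it called 5.37%. Both shares count the 2 directions together, and on that count the 77 members were called about as often as all genes by those tools. The share of all genes in each direction was not taken for them. In 15 members (19.5%) the lowest day 3 library lay above the highest day 1 library, which was so for 5.31% of all genes, and in 2 members (2.60%) the order was the opposite, which was so for 8.76%. All genes tested spread more within a day than the members, with a median coefficient of variation of 61.5% at day 1 and 45.2% at day 3. By subunit that of the members was at most 30.8% and 18.5%. A share for genes of like level was not taken. The 15 were Mrps14, Mrps18c, Mrps21, Mrps34, Mrpl14, Mrpl23, Mrpl27, Mrpl33, Mrpl35, Mrpl42, Mrpl46, Mrpl47, Mrpl51, Mrpl55 and Mrpl58, and the 2 were Mrpl4 and Mrpl52. Without day 1 a the first count was 24 (background 8.56%), without day 3 b it was 22 (7.10%), and without both it was 30 (11.0%), while the second remained at 2.

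**Figure D1:**
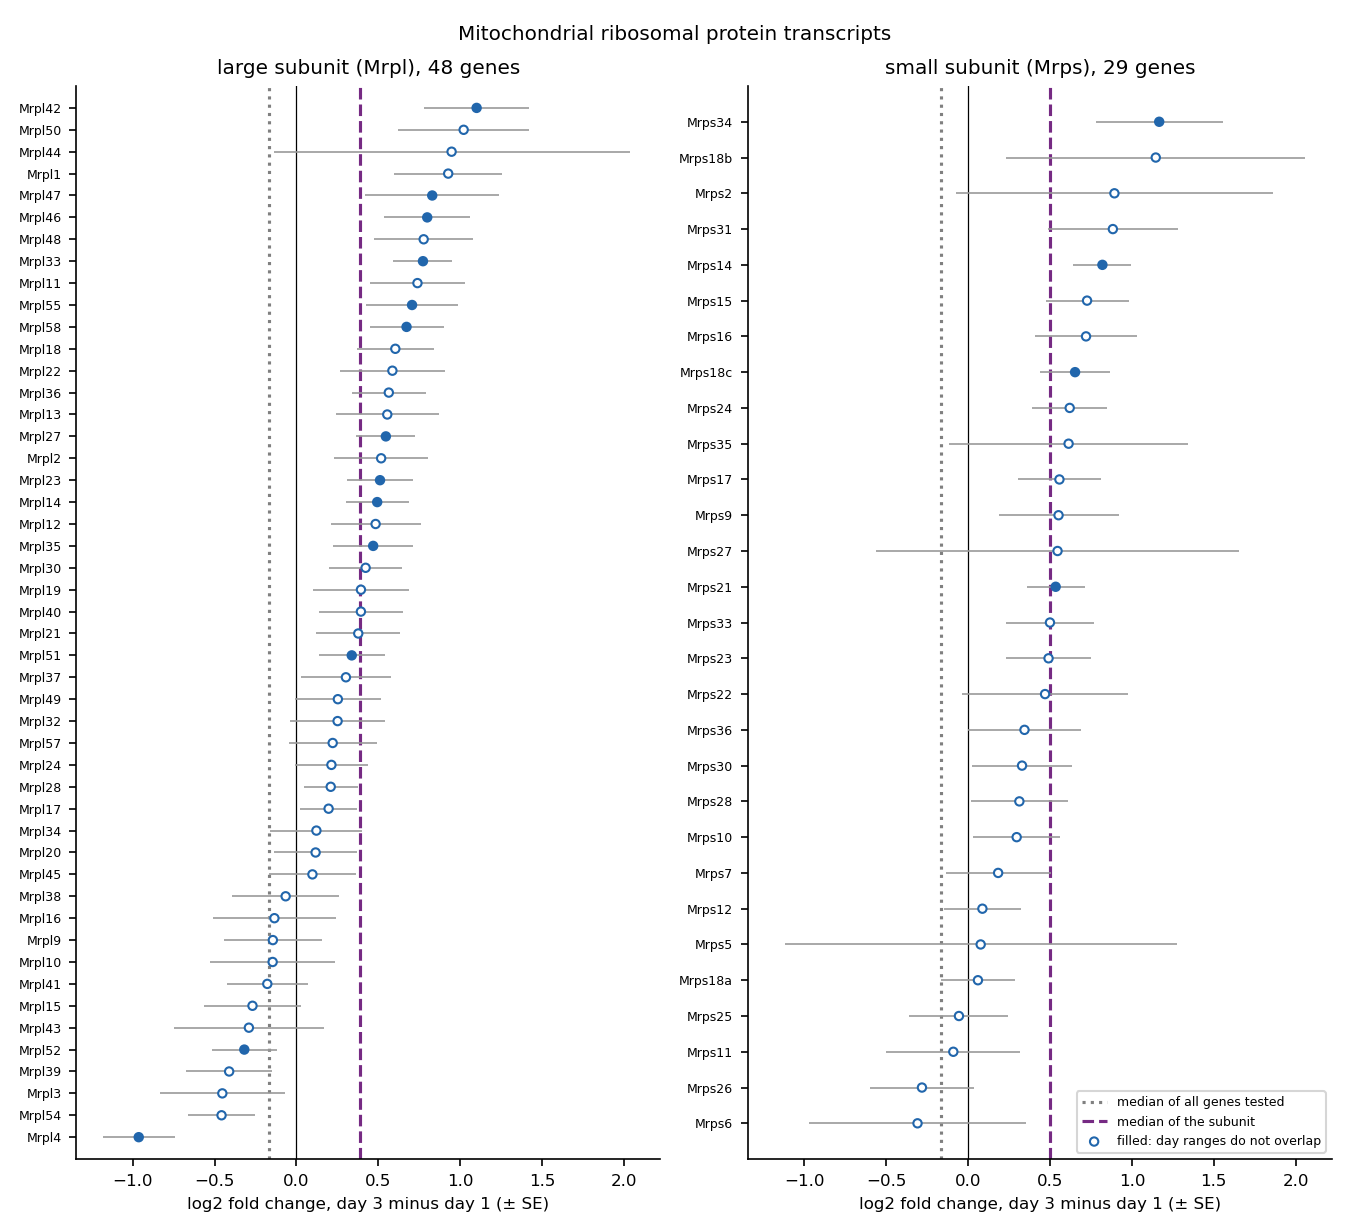
Log2 fold change (day 3 minus day 1, edgeR, bars ± SE) of the 48 tested Mrpl genes (left) and 29 Mrps genes (right), ordered by size, with the subunit median (dashed) and the median of all genes tested (dotted). Most points lie to the right of 0, with Mrps34 (1.17) and Mrpl42 (1.10) at the top and Mrpl4 (-0.96) at the bottom, and filled points mark the 17 members whose day ranges do not overlap.

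The small subunit had a median log2 fold change of 0.50, with 25 of 29 members above 0. None was called by edgeR, 7 had an unadjusted p under 0.05, all higher at day 3 (background 5.16%), and 4 (13.8%) had day ranges apart with a higher day 3 level (background 5.31%). Its quartiles were 0.18 and 0.65. Counting by structure, without Mrps18a, Mrps30 and Mrps36, the median was 0.54 over 26 genes.

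Mrps14, which encodes a protein with a bacterial counterpart in the head of the small subunit, was the member with the smallest p (GRCm39 chromosome 1, 160022785 to 160029740). It was at 87.8, 111 and 84.8 CPM in day 1 a to c and at 206, 161, 155, 147 and 165 CPM in day 3 a to e. Every day 3 library lay above every day 1 library, and day 3 a was the highest. The day means were 94.5 ± 14.3 and 167 ± 22.7 CPM (± SD over 3 and 5 libraries). On the log2 scale the fold change was 0.82 ± 0.18 (± SE), with an adjusted p of 0.0829 in edgeR. With 1 library left out it ran from 0.73 to 0.96, and it passed the test with DESeq2 (adjusted p = 0.00150), with limma voom (0.0275) and in edgeR without a filter on low counts (0.0472).

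Mrps21, which encodes another small subunit protein known from bacteria, was at 54.3, 47.3 and 39.7 CPM at day 1 and at 73.8, 72.1, 65.5, 68.6 and 61.3 CPM at day 3 (chromosome 3, 95769946 to 95778831). The days were apart, with a log2 fold change of 0.54 ± 0.18 (adjusted p in edgeR = 0.170). Mrps34, a protein of the mitochondrial but not the bacterial small subunit, had the largest positive fold change of all members, at a low level. It was at 5.54, 4.84 and 7.15 CPM at day 1 and at 13.6, 11.3, 13.9, 14.8 and 12.0 CPM at day 3, a log2 fold change of 1.17 ± 0.39 (adjusted p in edgeR = 0.170, DESeq2 0.00734). Of its 2064 exon bases, 1605 are shared with other genes, 1309 of them with Mapk8ip3 on the opposite strand, and reads in shared bases were not assigned, so its level can be understated.

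Mrps12, which encodes the protein of the decoding centre where streptomycin acts on bacterial ribosomes, was at 28.7 ± 5.58 and 30.5 ± 3.80 CPM, a log2 fold change of 0.088 ± 0.24 that was -0.079 without day 1 a. Its day ranges overlapped, with 22.5 to 33.4 CPM at day 1 and 24.9 to 34.9 CPM at day 3. The largest negative value of the small subunit was that of Mrps6, at 12.6, 4.49 and 4.39 CPM in day 1 a to c and 10.4, 5.84, 3.17, 6.78 and 2.80 CPM in day 3 a to e. The day 1 mean rested on day 1 a: the log2 fold change was -0.31 ± 0.66 with all libraries and 0.37 without that library.

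The large subunit had a median of 0.39, with 36 of 48 tested members above 0. None was called by edgeR, 14 had an unadjusted p under 0.05 and a higher level at day 3 (background 5.16%), and 2 (Mrpl4 and Mrpl54) a lower one (background 10.5%). Day ranges were apart in 11 members with a higher (22.9%) and 2 with a lower day 3 level (4.17%), against 5.31% and 8.76% of all genes. The quartiles were 0.057 and 0.59, so the bulk of both subunits covered much the same range. With Mrps18a and Mrps30 counted here the median was 0.36 over 50 genes. Whether the medians of the subunits differ was not tested.

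Mrpl33, which encodes a small protein with a bacterial counterpart, was at 53.6, 59.7 and 42.5 CPM at day 1 and at 97.7, 87.6, 90.4, 76.7 and 90.7 CPM at day 3 (chromosome 5, 31754279 to 31821728). All day 3 libraries were above all day 1 libraries, with means of 51.9 ± 8.73 and 88.6 ± 7.63 CPM and a log2 fold change of 0.77 ± 0.18 (adjusted p in edgeR = 0.0829, DESeq2 0.00390, limma voom 0.0388). Mrpl42, whose product is found in mitochondrial ribosomes alone, was at 96.7, 119 and 45.1 CPM at day 1 and at 247, 137, 209, 180 and 159 CPM at day 3. The days were apart, but both spread widely, with day 1 c low and day 3 a high. Its log2 fold change of 1.10 ± 0.32 (adjusted p in edgeR = 0.122, DESeq2 0.0208) was the largest of the large subunit and ran from 0.79 to 1.41 with 1 library left out.

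Mrpl27, which encodes a protein near the peptidyl transferase centre, was at 61.9, 63.5 and 44.5 CPM at day 1 and at 91.0, 82.0, 79.3, 83.6 and 77.2 CPM at day 3, apart by day, with a log2 fold change of 0.55 ± 0.18 (adjusted p in edgeR = 0.167). Mrpl58 encodes a peptidyl-tRNA hydrolase that frees stalled chains and is built into the large subunit. It was at 22.3, 24.0 and 23.8 CPM at day 1 and at 40.6, 38.5, 43.7, 28.8 and 34.3 CPM at day 3, a log2 fold change of 0.67 ± 0.23 (adjusted p in edgeR = 0.173). The day 1 values of Mrpl58 lay closer together than those of any other large subunit member, with a coefficient of variation of 3.91%. Mrpl12, the stalk protein that also binds the mitochondrial RNA polymerase, was at 23.6, 16.1 and 23.9 CPM at day 1 and at 34.3, 20.1, 33.3, 30.5 and 29.8 CPM at day 3. Day 3 b lay inside the day 1 range, and the log2 fold change was 0.48 ± 0.27 (adjusted p in edgeR = 0.451).

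Mrpl1, the protein of the mobile stalk on the other side, and Mrpl50 were also among the 6 largest positive values, at 19.99 ± 6.91 and 38.0 ± 10.3 CPM (0.93 ± 0.33) and at 17.1 ± 9.70 and 34.7 ± 6.72 CPM (1.02 ± 0.40). Their adjusted p in edgeR was 0.196 and 0.246. The other members whose days were apart with a higher day 3 level were Mrpl14 (0.49 ± 0.19), Mrpl23 (0.51 ± 0.20), Mrpl35 (0.47 ± 0.24), Mrpl46 (0.80 ± 0.26), Mrpl47 (0.83 ± 0.41), Mrpl51 (0.34 ± 0.20) and Mrpl55 (0.71 ± 0.28). Their adjusted p in edgeR ran from 0.167 (Mrpl46) to 0.482 (Mrpl51). The highest day 1 and lowest day 3 values lay close together for Mrpl35 (54.8 and 55.3 CPM) and Mrpl51 (38.8 and 39.3 CPM). Mrpl23 encodes a protein at the exit of the peptide tunnel.

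Mrpl4 stood at the other end. This large subunit gene with a bacterial counterpart (chromosome 9, 20914034 to 20920135) was at 46.5, 41.01 and 55.1 CPM at day 1 and at 27.4, 21.1, 21.0, 28.9 and 23.6 CPM at day 3. All day 3 libraries were below all day 1 libraries, with means of 47.5 ± 7.09 and 24.4 ± 3.60 CPM and a log2 fold change of -0.96 ± 0.22 (adjusted p in edgeR = 0.0829, DESeq2 0.00293, limma voom 0.0331). With 1 library left out the value ran from -1.05 to -0.84. Mrpl54, whose product is found in mitochondrial ribosomes alone, was at 106, 68.4 and 87.8 CPM at day 1 and at 72.6, 59.4, 59.4, 52.3 and 74.7 CPM at day 3. Its ranges overlapped, and the log2 fold change was -0.46 ± 0.20 (adjusted p in edgeR = 0.315). Mrpl52 was at 39.8 ± 2.58 and 31.9 ± 3.32 CPM, with days that did not overlap and a log2 fold change of -0.32 ± 0.20. Mrpl3 (-0.45 ± 0.38) and Mrpl39 (-0.41 ± 0.26) completed the 6 largest negative values with Mrps6, and both had overlapping ranges.

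**Figure D2:**
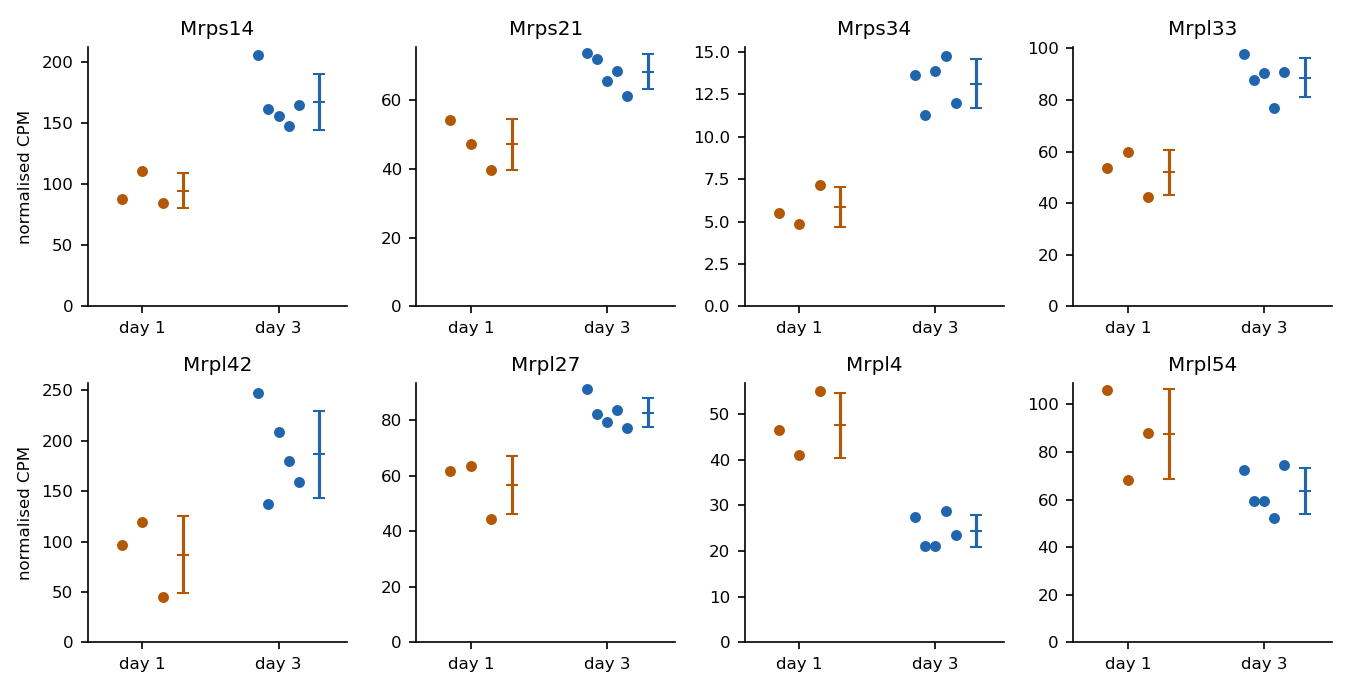
Normalised CPM of 8 members in each library, with the day mean and SD beside the points (n = 3 and 5). Mrps14, Mrps21, Mrps34, Mrpl33, Mrpl42 and Mrpl27 have every day 3 point above every day 1 point, Mrpl4 has the reverse, and the days overlap for Mrpl54.

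Summed over each subunit, the level was higher in every day 3 library than in any day 1 library. Small subunit transcripts summed to 752, 757 and 696 CPM at day 1 and to 1138, 915, 981, 1014 and 984 CPM at day 3, means of 735 ± 33.4 and 1006 ± 82.0 CPM and a ratio of 1.37. Large subunit transcripts summed to 1805, 1923 and 1526 CPM at day 1 and to 2448, 2003, 2273, 2233 and 2145 CPM at day 3, means of 1751 ± 203 and 2220 ± 164 CPM and a ratio of 1.27. In both sums day 3 a was the highest and day 3 b the lowest of its day. Sums weigh abundant genes most, and by the median member the picture differed for the large subunit. Its median log2 CPM ran from 4.78 to 5.28 at day 1 and from 5.11 to 5.40 at day 3, which overlap, while that of the small subunit ran from 4.34 to 4.50 and from 4.63 to 5.06, which do not. No p is given for these sums, since the members were chosen with earlier results of these libraries known.

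The balance of the subunits differed by little between the days. Per kilobase of exon, the large subunit held 69.9%, 73.3% and 69.8% of the summed level at day 1 and 66.6%, 68.6%, 69.4%, 68.1% and 69.1% at day 3, means of 71.0% ± 2.01 and 68.3% ± 1.07. The days did not overlap, although day 1 c and day 3 c were only 0.421 percentage points apart. In CPM without regard to length the shares were 70.3% ± 1.56 and 68.8% ± 0.605, and the days overlapped.

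**Figure D3:**
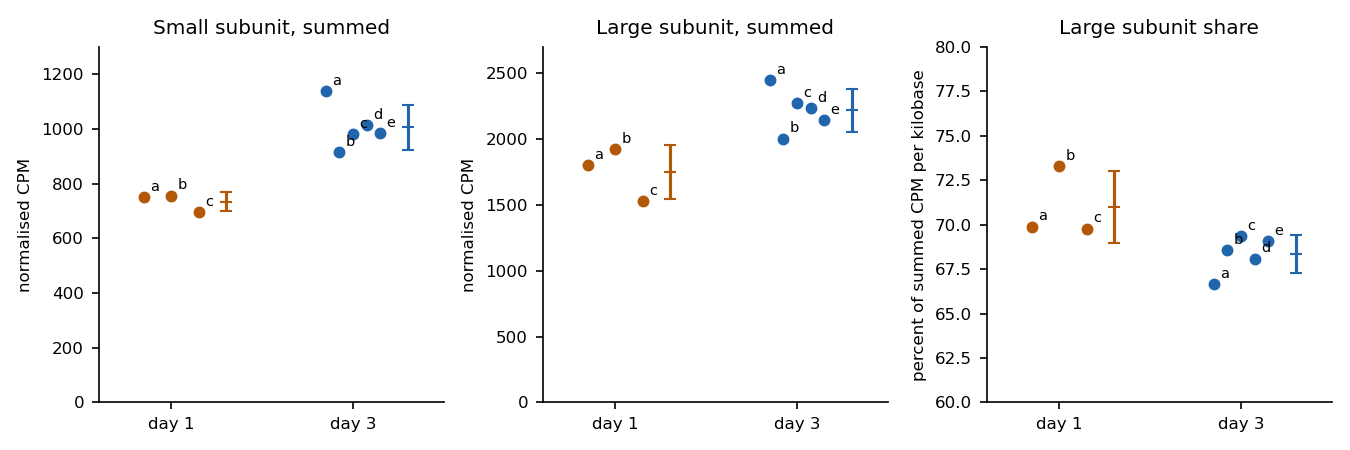
Summed normalised CPM of the Mrps genes (left) and Mrpl genes (middle), and the large subunit's percent of the summed CPM per kilobase (right, axis from 60 to 80), for each library (letters), with the day mean and SD. The day 3 sums lie above the day 1 sums in both subunits, and the large subunit's share lies between 66.6% and 69.4% at day 3 and between 69.8% and 73.3% at day 1.

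The library day 1 a lacked reads of 5 members that all other libraries held. Mrpl44, Mrps27 and Mrps5 had 1 count each there, Mrps2 had 4 and Mrps18b had 7, while the other 7 libraries held between 127 and 1004 counts of each. Mrpl44 encodes a large subunit protein with a fold like that of RNase III, and Mrps27 a small subunit protein of the pentatricopeptide repeat family. Across the table, 388 of 7667 genes (5.06%) with at least 100 counts in each of the other libraries had 10 or fewer in day 1 a, and the same count taken for each other library gave at most 26 genes (0.366%). The members' share, 5 of 76 (6.58%), was near that of all genes. Day 1 a also had the smallest total count, and the part of that in these low counts was not tested.

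Those 5 members had the widest errors, and their fold changes rested on that library. With all libraries the log2 fold change was 0.95 ± 1.09 for Mrpl44, 1.15 ± 0.91 for Mrps18b, 0.89 ± 0.97 for Mrps2, 0.55 ± 1.11 for Mrps27 and 0.077 ± 1.20 for Mrps5. Without day 1 a the values were 0.35 ± 0.36, 0.57 ± 0.43, 0.30 ± 0.40, -0.067 ± 0.41 and -0.53 ± 0.72. Mrpl44 and Mrps18b were named by the size of their fold change, and Mrps2, Mrps27 and Mrps5 were chosen after their values were seen.

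**Figure D4:**
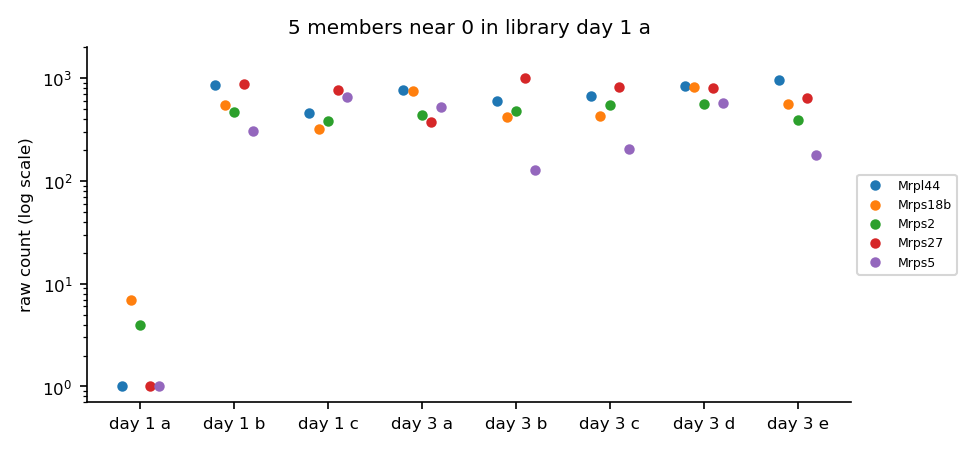
Raw counts (log axis) of Mrpl44, Mrps18b, Mrps2, Mrps27 and Mrps5 in the 8 libraries, with points of 1 library set side by side. All 5 genes are at 7 counts or fewer in day 1 a and at 127 or more in every other library.

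Libraries also differed within a day for the members at large. Day 3 b had the lowest value of its day in 31 of 77 members and the highest in 6, and day 3 a the highest in 36 and the lowest in 7. Day 3 b was also the day 3 library with the most neutrophil marker RNA, and the part of that in the lower values was not tested. At day 1, a was the lowest in 30 members and the highest in 23, b the lowest in 17 and the highest in 36, and c the lowest in 30 and the highest in 18. The coefficient of variation had a median of 30.8% for the small and 23.5% for the large subunit at day 1, and of 18.5% and 16.3% at day 3. For all 4355 genes with an average log2 CPM between 4 and 7 it was 33.9% and 22.9%.

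Mrps18a, Mrps18b and Mrps18c descend from 1 bacterial gene, and their products take different places in the ribosome. Mrps18c was at 48.1, 36.3 and 32.1 CPM at day 1 and at 70.2, 51.4, 69.9, 56.1 and 57.8 CPM at day 3, with days apart and a log2 fold change of 0.65 ± 0.21 (adjusted p in edgeR = 0.159). Mrps18a, which belongs to the large subunit by structure, was at 98.3, 68.4 and 53.8 CPM at day 1 and at 94.1, 80.2, 65.9, 73.6 and 69.5 CPM at day 3, with overlapping days and a log2 fold change of 0.061 ± 0.23. That value was -0.11 without day 1 c and -0.021 without day 3 a. Mrps18b was at 9.08 and 5.84 CPM in day 1 b and c and between 8.38 and 14.3 CPM at day 3. Per kilobase of exon, Mrps18c was the most abundant of the 3 on both days, with 36.1 ± 7.70 CPM at day 1 and 56.8 ± 7.90 CPM at day 3.

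Levels per kilobase of exon, averaged over all libraries, ran from 0.615 CPM (Mrps35) to 81.6 CPM (Mrps21) in the small subunit, with a median of 6.53 CPM, and from 2.12 CPM (Mrpl47) to 88.0 CPM (Mrpl54) in the large subunit, with a median of 13.1 CPM. The exon length in the table joins all transcripts of a gene, and transcript usage was not tested. Mrps35, with 8631 exon bases, was also the lowest tested member in CPM without regard to length, by its average log2 CPM of 2.42. The 3 highest of the small subunit were Mrps21, Mrps18c and Mrps14, and of the large subunit Mrpl54, Mrpl27 and Mrpl28. Mrpl54 was at 106 ± 22.9 and 77.2 ± 11.6 CPM per kilobase at day 1 and day 3, and Mrps21 at 63.8 ± 9.88 and 92.4 ± 6.82. Mrpl28, at 67.0 ± 10.5 and 77.5 ± 6.71, had a log2 fold change of 0.21 ± 0.16 and overlapping days. The neighbours Mrpl27 (74.0 CPM per kilobase over all libraries) and Mrpl28 (73.6) did not differ beyond their spread.

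Mrpl53 had 0 counts in all 8 libraries and was the 1 member not tested. Of its 790 exon bases, 695 are shared with the predicted gene Gm42688 on the same strand, and the counting left out reads that fall in 2 genes. In all, 32 of the 78 members share exon bases with another gene, 17 of them more than 10% and 3 (Mrpl53, Mrps34 and Mrps25) more than 50%. Mrps25 shares 4590 of its 6576 exon bases with Nr2c2 on the opposite strand.

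The members lie on 17 chromosomes, with 11 on chromosome 11 and 8 on chromosome 17. In 36 of 77 tested members (46.8%) a gene on the opposite strand starts within 1000 bases of the member's own start, which was so for 3624 of all 15371 genes tested (23.6%). In 1 such pair both genes are members: in the Ensembl annotation of the table, Mrps11 and Mrpl46 start 412 bases inside each other and share 173 exon bases on opposite strands. The RefSeq starts used for the promoters below differ from this, and lie 42 bases apart without overlap. Mrpl46 was at 16.8, 35.4 and 25.7 CPM at day 1 and at 44.0, 40.7, 48.6, 44.2 and 48.4 CPM at day 3, all above day 1. Mrps11 was at 50.3, 20.2 and 13.3 CPM at day 1 and at 31.1, 20.6, 29.0, 28.7 and 21.7 CPM at day 3, with overlapping days and a log2 fold change of -0.090 ± 0.41 that was 0.64 without day 1 a. In day 1 a Mrpl46 was the lowest and Mrps11 the highest of all 8 libraries.

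Promoters were read from RefSeq (build GRCm38.p6) as windows of 300 bases, 250 before and 50 after the start, and 69 of the 78 members had 75 windows. Nuclear genes for mitochondrial proteins are known for sites of ETS family factors such as GABPA, of NRF1 and of YY1. Searched on both strands, CCGGAAG (the ETS core) was in 26 of the 75 windows (34.7%), against 16.7% of 13319 windows of genes tested and 8.86% of all 32851 windows. GCATGCG (from the NRF1 site) was in 8 (10.7%), against 5.92% and 3.58%, and AAGATGG (from the YY1 site) in 13 (17.3%), against 7.10% and 6.34%. At least 1 of the 3 was in 38 windows (50.7%), against 26.7% and 17.3%. GCATGCG and its reverse complement share 6 letters, so that 1 site can match on both strands, and each window was counted once per motif. In the small subunit 11 of 27 windows held the ETS core and 1 the NRF1 core, and in the large subunit 15 and 7 of 48. Among the members with days apart and a higher day 3 level, 8 of 14 windows held at least 1 of the 3. These counts describe letters in a window and say nothing of binding.

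The windows of the 3 members called higher by DESeq2 with the highest levels, and of the head-to-head pair, are shown 5′ to 3′ on the gene's own strand, with matches to the 3 motifs in capitals. Mrpl33 (chr5:31613701-31614000, plus strand) has an NRF1 core on the minus strand beside an ETS core. The matches begin 11 and 3 bases before the start, and the ETS core runs across it. Mrpl42 (chr10:95501900-95502199, minus strand) has a YY1 core after the start. Mrps14 (chr1:160194965-160195264, plus strand) has no match. The windows of Mrps11 (chr7:78782881-78783180, plus strand) and Mrpl46 (chr7:78783040-78783339, minus strand) share 141 bases, read in opposite directions, and the 1 YY1 match lies in the part that belongs to Mrps11 alone.
Mrpl33: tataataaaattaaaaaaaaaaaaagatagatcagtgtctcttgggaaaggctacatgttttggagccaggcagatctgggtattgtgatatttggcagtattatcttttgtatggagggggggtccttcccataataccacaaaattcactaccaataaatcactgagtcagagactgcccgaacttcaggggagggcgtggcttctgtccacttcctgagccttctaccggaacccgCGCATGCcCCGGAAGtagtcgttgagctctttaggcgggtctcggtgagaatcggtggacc
Mrpl42: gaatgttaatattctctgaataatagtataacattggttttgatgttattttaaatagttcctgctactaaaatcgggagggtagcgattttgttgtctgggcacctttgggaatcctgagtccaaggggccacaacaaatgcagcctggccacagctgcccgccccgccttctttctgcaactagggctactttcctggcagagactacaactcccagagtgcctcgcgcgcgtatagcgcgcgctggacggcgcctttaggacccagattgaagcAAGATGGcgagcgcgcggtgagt
Mrps14: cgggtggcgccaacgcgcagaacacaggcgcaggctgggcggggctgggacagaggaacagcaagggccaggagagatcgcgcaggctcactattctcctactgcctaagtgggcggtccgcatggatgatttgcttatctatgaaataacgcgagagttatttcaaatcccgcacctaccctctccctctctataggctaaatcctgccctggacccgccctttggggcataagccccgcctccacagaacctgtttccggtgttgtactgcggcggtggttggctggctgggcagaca
Mrps11: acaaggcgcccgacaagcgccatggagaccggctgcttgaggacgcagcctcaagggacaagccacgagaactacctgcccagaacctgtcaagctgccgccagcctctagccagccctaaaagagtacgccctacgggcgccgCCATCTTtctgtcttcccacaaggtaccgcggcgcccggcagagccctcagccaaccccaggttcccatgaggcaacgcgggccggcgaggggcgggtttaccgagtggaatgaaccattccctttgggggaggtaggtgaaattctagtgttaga
Mrpl46: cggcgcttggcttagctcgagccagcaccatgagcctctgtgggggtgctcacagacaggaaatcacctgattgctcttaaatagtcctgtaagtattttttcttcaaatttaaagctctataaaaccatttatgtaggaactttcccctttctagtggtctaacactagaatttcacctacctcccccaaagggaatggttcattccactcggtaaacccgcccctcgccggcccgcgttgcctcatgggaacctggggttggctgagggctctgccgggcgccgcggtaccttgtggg

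None of the other genes of mitochondrial translation was called by edgeR. The 5 ribosomal proteins without an Mrp symbol had a median log2 fold change of 0.27, with 1 at an unadjusted p under 0.05, higher at day 3 (background 5.16%). That was Chchd1, a small subunit protein, at 30.2 ± 5.32 and 53.6 ± 9.46 CPM with days apart, 0.83 ± 0.23 (adjusted p in edgeR = 0.0991). Gadd45gip1, a large subunit protein, was next by p with 0.78 ± 0.42, and Dap3, the GTP-binding protein of the small subunit, was at 38.7 ± 4.70 and 28.8 ± 5.44 CPM (-0.42 ± 0.23). The 25 assembly factors had a median of 0.081, with 2 at an unadjusted p under 0.05, both higher at day 3 (background 5.16% higher and 10.5% lower). These were Malsu1, which holds the subunits apart during assembly (16.1 ± 0.625 and 26.1 ± 5.31 CPM, 0.70 ± 0.27), and Mettl15, a methyltransferase for the ribosomal RNA of the small subunit (0.708 ± 0.565 and 4.01 ± 1.601 CPM, 2.50 ± 1.07).

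The translation factors, which start, extend and end the chain on this ribosome, had a median of -0.38, below that of all genes tested, and 10 of the 15 found were below 0. None of them had an unadjusted p under 0.05, and the smallest were those of the recycling factor gene Gfm2 (26.9 ± 12.6 and 14.4 ± 5.56 CPM, -0.90 ± 0.45) and of the elongation factor gene Tsfm (17.9 ± 5.67 and 11.2 ± 2.51 CPM, -0.67 ± 0.36). Tufm, which encodes the mitochondrial elongation factor that brings the transfer RNA, was at 11.6 ± 7.93 and 6.33 ± 2.53 CPM. Among 12 regulators of mitochondrial gene expression the median was 0.11 and none had an unadjusted p under 0.05. Gabpa was at 52.2 ± 10.9 and 38.4 ± 6.01 CPM (-0.44 ± 0.22), Nrf1 at 30.9 ± 1.09 and 31.6 ± 7.10 CPM (0.032 ± 0.25), and Tfam, the packaging factor of mitochondrial DNA, at 2.84 ± 2.93 and 11.2 ± 5.69 CPM (1.98 ± 1.14). The days overlapped for Tfam, which was at 0.0503, 2.57 and 5.90 CPM in day 1 a to c and at 2.36 CPM in day 3 e.

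No difference between the days was detected for the RNA partners of the proteins. The large ribosomal RNA mt-Rnr2 was at 1770 ± 331 and 2034 ± 522 CPM (0.20 ± 0.23) and the small one, mt-Rnr1, at 137 ± 32.8 and 151 ± 38.1 CPM (0.13 ± 0.24). Both have an adjusted p over 0.7 in edgeR (0.746 and 0.861). The 13 mitochondrial messenger RNAs summed to 22572, 10526 and 3260 CPM at day 1 and to 11206, 13979, 17089, 8019 and 6848 CPM at day 3, so day 1 a and c differed more from each other than the day means did. Of these sums mt-Cytb alone gave 12935, 5847 and 1225 CPM at day 1 and 6083, 7793, 9992, 4221 and 3616 CPM at day 3. Several of the 13 added almost nothing, as given under Other observations. Those with the smallest p were mt-Nd6 (151 ± 108 and 114 ± 44.5 CPM, -0.40 ± 0.45) and mt-Nd5 (490 ± 370 and 405 ± 150 CPM, -0.28 ± 0.47), both subunits of complex I. Cytosolic ribosomal proteins, taken by symbol, had a median log2 fold change of 0.36 over 89 tested genes. The symbol pattern also admits paralogues marked with an l, so some may not be part of the ribosome outside the mitochondrion. Of the 89, 24 were higher (27.0%) and 3 lower (3.37%) at day 3 with days apart, against 5.31% and 8.76% of all genes. None was called by edgeR, and 31 had an unadjusted p under 0.05, all higher at day 3 (background 5.16%), the smallest being those of Rpl35 (154 ± 20.6 and 320 ± 39.7 CPM, 1.05 ± 0.17) and Rps27 (137 ± 31.9 and 308 ± 62.2 CPM, 1.17 ± 0.23). Whether their distribution differs from that of the members was not tested. Their sum was 8544, 9377 and 12265 CPM at day 1 and 15225, 14005, 11260, 13301 and 12461 CPM at day 3, with overlapping days.

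**Figure D5:**
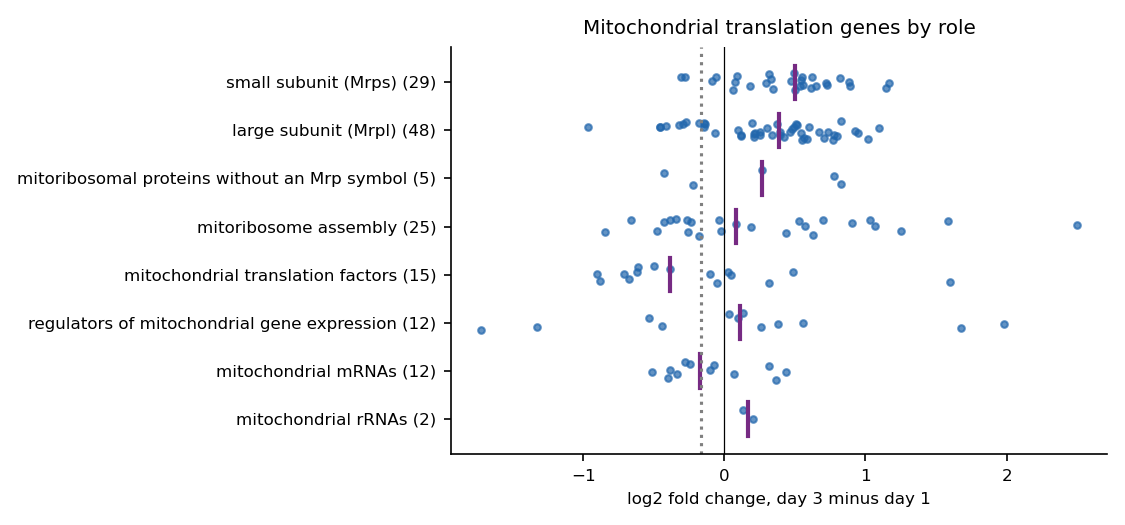
Log2 fold change (day 3 minus day 1, edgeR) of each tested gene of the small and large subunit and of 6 related lists (number tested in brackets), with list medians as bars and the median of all genes tested as a dotted line. The medians of the 2 subunits lie at 0.50 and 0.39, that of the translation factors at -0.38 and that of the mitochondrial messenger RNAs at -0.17.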

How the data were processed

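RNA sequencing of 8 macrophage libraries was deposited by the authors as 1 table of raw counts per gene, not normalised. The counting was done by featureCounts 1.6.0 with Ensembl release 106 of GRCm39, per the file headers, which record no option for strand or read pairs. The submitters' processing notes name Trimmomatic and DESeq2. No aligner is named in the sources used here. The alignments listed in the header carry partly other letters than the columns, so letters serve only as names. Between 73.0% and 86.0% of counts from 2 to 20 were even, so a fragment may count for more than 1. Total counts bound the precision: 3 counts, the floor of detection for counting error only, equal 0.0498 to 0.0722 CPM. Symbols came from the reference name table for 52081 of 55414 genes (94.0%). The symbols Mtrfr and Mtres1 had no match and mt-Nd4l did not pass the filter.

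All genes with sufficient counts (filterByExpr, minimum count 10) were scaled by TMM and fitted in edgeR 4.0.16 with the quasi-likelihood F test (two-sided), and p was adjusted by Benjamini-Hochberg over the 15371 genes tested. All 77 members with a count passed the filter. Standard errors are the fold change divided by the root of F. The p-values measure the spread between pools. Alternatives were DESeq2 1.42.0, limma 3.58.1 (voom), other scalings and filters, fits without each library in turn, and a block for letters a to c. Fits without both day 1 a and day 3 b, assignment by structure and the counts of ranges under other settings were chosen after seeing the data. R was 4.3.3, Python 3.11.15 and matplotlib 3.10.9. The fits were tested on simulated data. The members and lists were chosen with earlier results of these data known. Named members were those called, the 6 largest fold changes either way, the 3 highest per kilobase of each subunit, those with days apart, and Mrps18a, Mrps18b, Mrps18c, Mrpl12, Mrps12 and Mrpl58. From each related list the 2 genes with the smallest p were named, and others among them were chosen after their values were seen. A planned comparison of the Mrps18 proteins was not made.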

Additional observations from a re-analysis of the deposited data

Results flagged for a closer look

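Of 81 values tested for a day 3 library far from the other 4 (77 members and 4 sums or shares), 5 had one, and chance gives about 1 in 20. Mrpl13 was at 60.8 CPM and Mrpl48 at 87.4 CPM in day 3 a, both high for their day, and Mrpl35 was high in day 3 d with 78.1 CPM. Mrps15 was low in day 3 b with 30.5 CPM, and Mrps23 was low in day 3 c with 24.6 CPM. Groups of 3 were not tested, so day 1 values are not covered.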

How the results depend on the processing

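The median log2 fold changes of both subunits stayed above 0 in every setting run, from 0.46 to 0.56 for the small and from 0.25 to 0.44 for the large subunit. The number of members called, 0 in edgeR, was 5 with DESeq2, 3 with limma voom and 2 in edgeR without a filter on low counts, and 0 with each library left out. Over all genes edgeR called 2 of 15371, 1347 of 38518 without a filter, 146 of 8142 with the stricter filter and 0 to 59 with 1 library left out. Members at an unadjusted p under 0.05 numbered 23 (background 5.16% of all genes higher and 10.5% lower), 10 without a filter, and 16 to 24 with 1 library left out. The share of all genes at that p is not given for the settings other than the main fit. The counts there, with those for letters a to c below, therefore have no background to be read against. Members with days apart and a higher day 3 level numbered 15. That count was 24 if day 1 a was left out, 22 if day 3 b was, and 30 if both were. For letters a to c alone the count at an unadjusted p under 0.05 was 10, and 7 with the letter as a replicate block, with 0 called either way. The letters were not used to pair the samples in the main fit, and the header of the table gives other letters for 1 day 1 and 4 day 3 alignments. Deviations from the day mean correlated at 0.0697, 0.00779 and 0.0567 for a, b and c. Day 1 a and day 1 c correlated best with their own letter, and day 1 b with day 3 a (0.0216). With 3 libraries of each day these values cannot settle whether samples are paired.

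The sign of the fold change turned in 17 of 77 members when 1 library was left out, in 10 of them without day 1 a and in 6 without day 1 c. Among those named in the text, besides Mrps11 (from -0.42 to 0.64) and Mrps25 (from -0.31 to 0.088), these were the following. Over the fits that each left out 1 library, the fold change (log2) lay from -0.079 to 0.22 for Mrps12, from -0.11 to 0.31 for Mrps18a, from -0.067 to 0.98 for Mrps27, from -0.53 to 1.21 for Mrps5 and from -0.62 to 0.37 for Mrps6. Without both day 1 a and day 3 b it was -0.22 for Mrps27, -0.32 for Mrps5 and 0.38 for Mrps6, and with letters a to c alone, unblocked, it was -0.028 for Mrps5. Beside the 5 near 0 in day 1 a, the lowest counts of a tested member in a library were 88 for Mrps35 and 147 for Mrps6. The part of depth in the spread of such members was not tested.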

Other observations

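Among the mitochondrial messenger RNAs, which this ribosome translates, the counts assigned differed by orders of magnitude. The level of mt-Co1 was 2276 ± 1322 CPM at day 1 and 2389 ± 594 CPM at day 3, whereas mt-Co2 was at 0.863 ± 0.517 and 1.11 ± 0.217 CPM, mt-Co3 at 0.862 ± 0.443 and 1.07 ± 0.232 CPM and mt-Atp6 at 1.89 ± 1.64 and 2.55 ± 0.555 CPM. Their products are subunits of the same enzymes, cytochrome oxidase and ATP synthase. Also low were mt-Nd3 (1.00 ± 0.517 and 0.700 ± 0.267 CPM) and mt-Atp8 (0.377 ± 0.273 and 0.288 ± 0.123 CPM), and mt-Nd4l did not pass the filter. Whether reads of the low genes were lost in alignment or counting was not tested, so the values may not be their levels. All of the low genes but mt-Nd4l enter the list's median log2 fold change of -0.17. These genes were chosen after their values were seen.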
